A study of Mus musculus with 6 samples.

Results

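The ADAMTS proteases with Adamts9 are 10 mouse genes for secreted matrix proteases (Adamts1, Adamts2, Adamts4, Adamts5, Adamts6, Adamts7, Adamts9, Adamts10, Adamts12 and Adamts20), taken by gene symbol. Of these, 9 genes had at least 1 probe set that names no other gene, and they account for 14 of the 28853 probe sets on the array: 6 for Adamts9 and 1 for each of the other 8 genes. No probe set used here is listed under the symbol Adamts2 alone, so Adamts2 was not analysed here. RNA came from cultures of MS5, a mouse bone marrow stromal cell line, kept for 7 days with 1 μM PD184352 (MEKi) or with diluent (DMSO). PD184352 blocks the kinase MEK, which activates ERK in the MAPK cascade, and MEKi-treated MS5 cells were profiled in the study to look for factors that they release. There were 3 MEKi and 3 diluent cultures, 1 of each in every one of 3 independent experiments, and each was hybridized to 1 Affymetrix mouse Gene ST array. The cells of both groups were the same line, so the data describe 1 cell line. The family was selected on the MEKi minus diluent differences of its genes in these same arrays, Adamts9 above all. Those differences are therefore given as a description. No p is printed for them, and counts of calls among them stand only beside the share over all probe sets.

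ADAMTS proteases are zinc metalloproteases with thrombospondin repeats, made as precursors that proprotein convertases such as furin cleave. Once secreted they bind to the pericellular matrix, where they cut large proteoglycans such as versican and aggrecan, procollagens or microfibril proteins, and several of them are inhibited by Timp3. Adamts9 and Adamts20 share a long carboxy-terminal part first described in the worm protein GON-1, and both cleave versican. Adamts1, Adamts4 and Adamts5 cleave versican and aggrecan, Adamts7 and Adamts12 bind cartilage oligomeric matrix protein, Adamts6 and Adamts10 act at fibrillin microfibrils, and Adamts2 removes the amino-terminal propeptide of fibrillar collagens.

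The sequence before the transcription start is shown for the 3 genes that were higher with MEKi in every experiment and had a promoter sequence from RefSeq (GRCm38.p6), since they differed in the same direction. Each run is 250 bases long, ends at the base before the start and is written in the direction of the gene, which is the minus strand for all 3. Capitals mark matches to any of 6 short motifs searched on both strands, which are TGANTCA (AP-1), TGACGTCA (CRE), CCGGAAG (ETS), TGTTTAC (FOXO), GGGCGG (SP1) and TATAAA (the core promoter box that carries its name). Adamts9 lies at chr6:92943535-92943784, Adamts20 at chr15:94404351-94404600 and Adamts1 at chr16:85803114-85803363.
Adamts9: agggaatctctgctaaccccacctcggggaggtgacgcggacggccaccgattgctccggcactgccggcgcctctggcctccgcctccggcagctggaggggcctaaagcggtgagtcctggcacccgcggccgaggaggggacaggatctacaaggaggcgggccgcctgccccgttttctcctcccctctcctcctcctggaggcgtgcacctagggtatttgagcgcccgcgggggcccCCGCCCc
Adamts20: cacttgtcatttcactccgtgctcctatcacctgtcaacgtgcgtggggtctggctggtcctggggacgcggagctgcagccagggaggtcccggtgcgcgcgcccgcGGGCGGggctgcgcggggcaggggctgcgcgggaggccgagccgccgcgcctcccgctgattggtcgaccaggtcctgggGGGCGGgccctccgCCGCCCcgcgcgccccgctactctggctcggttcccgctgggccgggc
Adamts1: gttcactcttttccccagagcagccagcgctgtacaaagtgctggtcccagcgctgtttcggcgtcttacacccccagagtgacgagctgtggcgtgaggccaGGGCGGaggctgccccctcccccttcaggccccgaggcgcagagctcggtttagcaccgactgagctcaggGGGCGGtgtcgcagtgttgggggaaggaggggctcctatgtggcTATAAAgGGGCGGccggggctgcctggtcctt
Adamts9 held 1 match, to the SP1 letters, 7 bases before the start. Adamts20 held 3 SP1 matches, 142, 62 and 48 bases before the start. Adamts1 held 3 SP1 matches, 147, 76 and 25 bases before the start, and a TATAAA match at 32 bases, which overlaps none of them. Of 32851 windows of this length before the starts of 27025 genes, 32.7% held the SP1 letters and 12.4% the TATAAA letters, so both are common. The other 4 motifs, at 6.75% (AP-1), 1.55% (CRE), 6.91% (ETS) and 3.17% (FOXO) of windows, had no match in these 3. These matches are letters in a window and not measured binding sites.

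The deposited values are log2 intensities after RMA, between 2.25 and 14.07, with array medians of 6.29 to 6.38 and correlations between arrays of 0.987 to 0.997. The median difference of all probe sets was -0.003, 0.10 and 0.01 in experiments 1, 2 and 3. Of 11 bone marrow stromal markers, 8 were above the array median on every array (Lepr, Lum and Thy1 were not), as were 0 of 5 endothelial, 1 of 4 epithelial (Krt8) and 1 of 6 leukocyte markers (Cd68). The mean of the leukocyte list was 6.14 to 6.38 in MEKi arrays and 6.29 to 6.64 in diluent arrays. No marker was past the threshold, an adjusted p under 0.05 from limma over all probe sets. The stromal marker closest to it, Vcam1, lay between 9.24 and 9.52 in MEKi arrays and between 9.73 and 10.00 in diluent arrays (adjusted p = 0.0942). Cxcl12 differed most the other way, by 0.22 (adjusted p = 0.445). The closest leukocyte marker, Cd53, lay between 5.95 and 6.43 in MEKi arrays and between 6.53 and 7.08 in diluent arrays (adjusted p = 0.0698). Cd68 read 9.69, 8.96 and 10.67 in MEKi arrays and 10.62, 9.10 and 11.41 in diluent arrays (adjusted p = 0.249), while Cd3e differed by 0.03. The part of leukocytes in the values below was not tested. In bulk RNA, fewer cells that make a transcript and less of it per cell cannot be told apart.

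Adamts9 was higher with MEKi in all 3 experiments and on all 6 of its probe sets, by 1.63- to 1.93-fold on average. On its brightest probe set the values were 10.19, 10.73 and 10.53 in the MEKi arrays of experiments 1, 2 and 3, and 9.25, 10.04 and 9.44 in the diluent arrays. Every MEKi value lay above every diluent value, and in both groups experiment 2 was the highest. The difference within an experiment was 0.94, 0.69 and 1.09 on the log2 scale, a mean of 0.91 ± 0.20 (SD, n = 3) or 1.88-fold.

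The other 5 probe sets of Adamts9 showed the same arrangement. The widest difference was on a probe set (numbered 5 in the plot of differences) with 9.51, 9.96 and 9.89 in MEKi arrays and 8.64, 9.18 and 8.70 in diluent arrays, which is 0.95 ± 0.21 or 1.93-fold. The narrowest was on a probe set (numbered 3) with 9.49, 10.06 and 9.84 in MEKi arrays and 8.83, 9.48 and 8.95 in diluent arrays, which is 0.71 ± 0.16 or 1.63-fold. The groups did not overlap on any of the 6. Over the 18 differences that 6 probe sets and 3 experiments give, the lowest was 0.55 and the highest 1.19. The probe sets differed between 0.66 and 0.94 in experiment 1, between 0.55 and 0.79 in experiment 2 and between 0.88 and 1.19 in experiment 3. Thus experiment 3 had the largest difference on 6 of 6 probe sets, although experiment 2 had the highest MEKi value and the highest diluent value on 6 of 6. Over the 6 arrays the probe sets correlated with each other by 0.942 to 0.998 (15 pairs). They read parts of 1 gene in the same RNA and are not independent measurements of it.

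**Figure D1:**
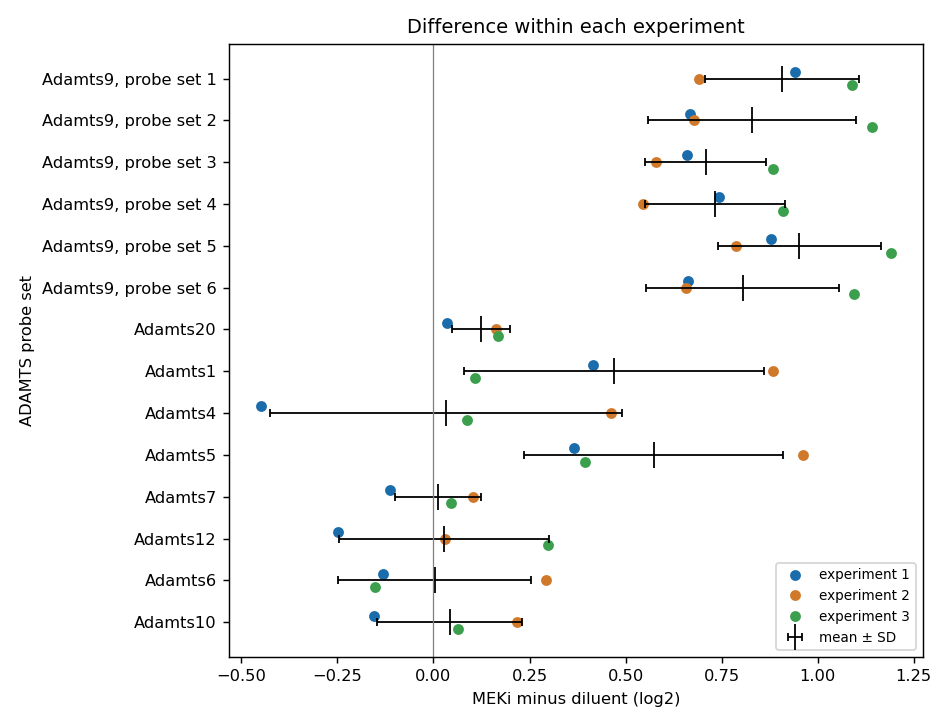
MEKi minus diluent (log2) within each of 3 experiments for the 14 ADAMTS probe sets, with the mean ± SD of the 3 differences; Adamts9 probe sets are numbered by falling mean value. All 18 Adamts9 points lie between 0.55 and 1.19, while Adamts4, Adamts6, Adamts7, Adamts10 and Adamts12 have points on both sides of 0.

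Adamts20, the closest relative of Adamts9 and the gene behind the belted coat pattern of mice, had low values and a small difference in the same direction. It read 5.15, 5.24 and 5.17 in MEKi arrays and 5.11, 5.08 and 5.01 in diluent arrays. The groups did not overlap, but the differences of 0.04, 0.16 and 0.17 averaged 0.12 ± 0.08 (SD, n = 3), or 1.09-fold. Its mean lay below 6.32, the median of all probe set means, and the means of the other 8 genes lay above it. No detection call was used here, so how far its probe set read above background is not known.

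Among the proteases that cleave aggrecan and versican, Adamts1 and Adamts5 were higher with MEKi in every experiment, and Adamts4 was not. Adamts1, which takes part in ovulation and in turnover of versican, read 9.66, 9.28 and 8.59 in MEKi arrays and 9.24, 8.39 and 8.48 in diluent arrays. The groups overlapped, since the MEKi value of experiment 3 lay below the diluent value of experiment 1. Within experiments the difference was 0.42, 0.88 and 0.11, a mean of 0.47 ± 0.39 (SD, n = 3) or 1.38-fold, and experiment 2 supplied most of it.

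Adamts5, a main aggrecanase of mouse cartilage, read 10.50, 10.52 and 8.39 in MEKi arrays and 10.13, 9.56 and 8.00 in diluent arrays. Both arrays of experiment 3 lay below all 4 others, so the groups overlapped. The differences were 0.36, 0.96 and 0.39, which average 0.57 ± 0.34 or 1.49-fold, and here too experiment 2 had the largest. Adamts4, the other enzyme named as an aggrecanase, read 7.87, 8.82 and 8.52 in MEKi arrays and 8.32, 8.35 and 8.44 in diluent arrays. Its MEKi values spread on both sides of the diluent values, which lay close together. The differences of -0.45, 0.46 and 0.09 averaged 0.03 ± 0.46.

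The 4 remaining genes had mean differences near 0. Adamts7, a protease also known from vascular smooth muscle, read 7.54, 7.96 and 7.97 in MEKi arrays and 7.65, 7.86 and 7.93 in diluent arrays. Adamts12, its closest relative, read 8.51, 8.54 and 8.81 in MEKi arrays and 8.76, 8.51 and 8.51 in diluent arrays. In experiment 1 the MEKi value was the lower for both genes, with differences of -0.11 for Adamts7 and -0.25 for Adamts12, while it was the higher in experiments 2 and 3. The means were 0.01 ± 0.11 for Adamts7 and 0.03 ± 0.27 for Adamts12 (SD, n = 3).

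The microfibril-related pair also had differences of both signs. Adamts6 read 6.66, 7.34 and 7.28 in MEKi arrays and 6.79, 7.04 and 7.43 in diluent arrays, with differences of -0.13, 0.29 and -0.15. Adamts10, the gene altered in a form of human Weill-Marchesani syndrome, read 7.89, 8.04 and 8.00 in MEKi arrays and 8.05, 7.82 and 7.94 in diluent arrays, with differences of -0.16, 0.22 and 0.06. The means of 0.00 ± 0.25 and 0.04 ± 0.19 were smaller than their spread. For Adamts4, Adamts6, Adamts7, Adamts10 and Adamts12 the sign of the mean is not settled, because it turned in at least 2 of 11 alternative settings for each.

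**Figure D2:**
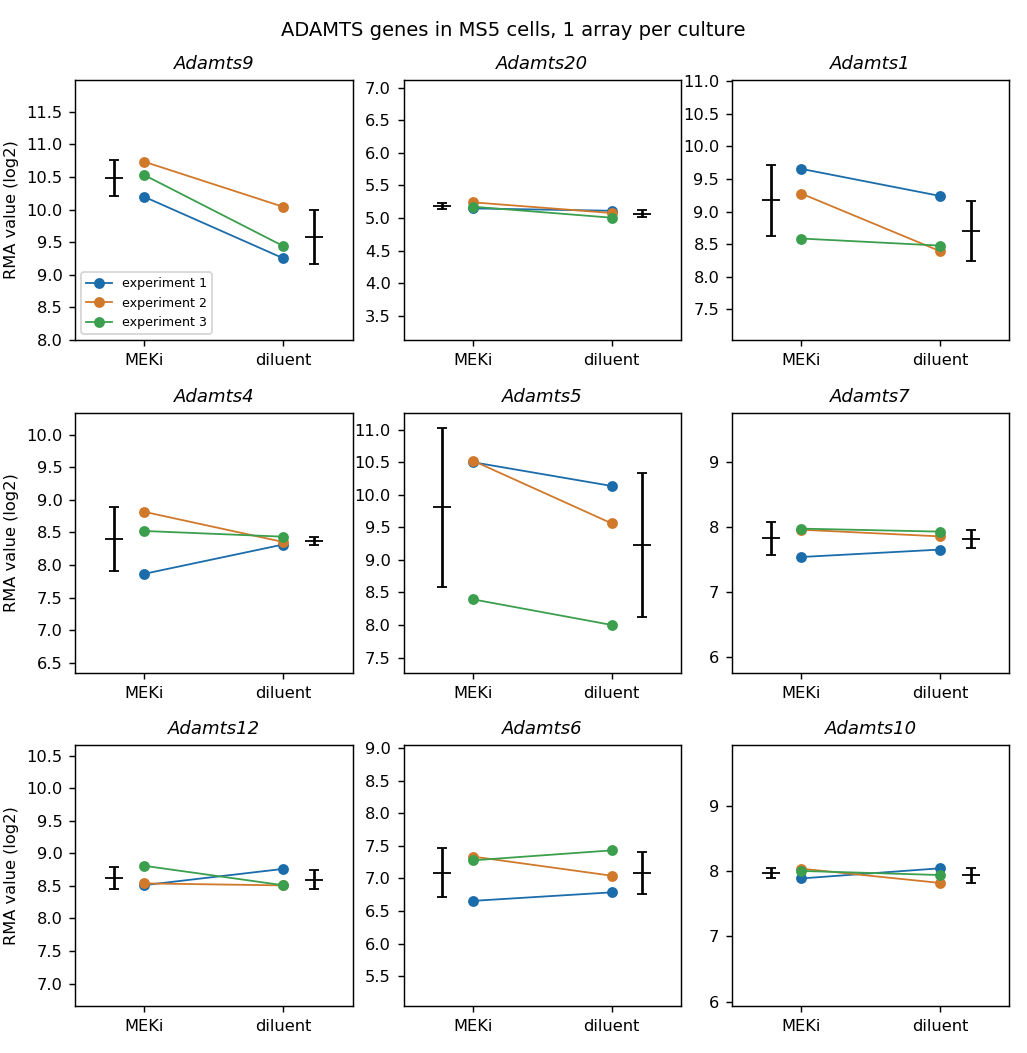
RMA values (log2) of the 9 ADAMTS genes on the 6 arrays, brightest probe set of each gene, with MEKi left and diluent right; lines join the arrays of 1 experiment, bars give mean ± SD (n = 3), and each panel spans the same range of 4 log2 units. Only Adamts9 has 3 steep lines with no overlap between the groups. The 3 Adamts5 lines slope in the same direction, most steeply in experiment 2, but experiment 3 sits at 8.39 and 8.00.

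Counted over the family, 4 of the 14 probe sets were called higher with MEKi and 0 lower (limma, adjusted p under 0.05), against 0.104% called higher and 0.0555% called lower of all 28853 probe sets. With an estimated correlation between the arrays of an experiment (a random block) 0 ADAMTS probe sets were called. All 4 belong to Adamts9. Without experiment 1 or without experiment 2 no ADAMTS probe set was called, and without experiment 3 there were 2. After a further quantile normalization or centring of each array there were 0. Among probe sets naming 1 gene, with an intensity trend and with array weights there were 6. The calls over all probe sets tested were then 61 among those naming 1 gene, 115 with the trend and 57 with array weights. Over all probe sets the split of 30 higher and 16 lower became 4 higher and 11 lower after quantile normalization and 6 higher and 8 lower without experiment 1. Higher in all 3 experiments were 9 of 14 probe sets (4 genes, Adamts1, Adamts5, Adamts9 and Adamts20), against 23.8% of all probe sets, and 0 were lower in all 3. All 3 MEKi arrays lay above all 3 diluent arrays for 7 of 14 (the 6 of Adamts9 and that of Adamts20), against 5.69% of all. These counts come from the comparison on which the family was picked and are given without a reading. Adamts1, Adamts5, Adamts9 and Adamts20 were higher in all 3 experiments also after quantile normalization and after centring. Over the alternatives the mean difference was 0.82 to 1.02 for the brightest Adamts9 probe set. It was 0.38 to 0.68 for Adamts5, 0.26 to 0.65 for Adamts1 and 0.08 to 0.17 for Adamts20. The means of the 6 Adamts9 probe sets ran from 0.68 to 0.92 after centring and from 0.67 to 0.91 after quantile normalization.

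How far the genes varied between the 3 experiments is a separate question, tested with treatment as a covariate (moderated F test of limma, adjusted over all probe sets). The test divides by the same residual variance as the MEKi minus diluent comparison on which the family was picked. Its counts and p-values for the members are therefore not independent of that choice. Of the 14 probe sets, 4 passed (28.6%), against 7.69% of all probe sets. Because 2 of the 4 are Adamts9 probe sets, this is 3 genes. Adamts5 differed most. Its mean over the MEKi and diluent arrays was 10.32, 10.04 and 8.20 in experiments 1, 2 and 3, so that experiment 3 minus experiment 1 was -2.12 and experiment 3 minus experiment 2 was -1.84 (SE 0.15 each, F = 112.9, adjusted p = 0.000722). In linear terms Adamts5 was 4.34-fold higher in experiment 1 and 3.59-fold higher in experiment 2 than in experiment 3, which exceeds its 1.49-fold difference between MEKi and diluent. It passed under all 12 alternatives run for it, with adjusted p between 9.36e-05 and 0.0123.

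Adamts1 had means of 9.45, 8.83 and 8.53 in the 3 experiments (F = 15.05, adjusted p = 0.0416 from limma), and experiment 3 minus experiment 1 was -0.92 (SE 0.17). It passed in 9 of 12 alternatives, and missed the threshold without the MEKi array of experiment 1 (adjusted p = 0.134), without the diluent array of experiment 1 (0.159) and without the treatment term (0.157). Adamts1 and Adamts5 both lie on chromosome 16 in the RefSeq annotation of GRCm38.p6. Between them are 0 protein-coding genes but the long non-coding RNA gene 4930556C24Rik. Both had their lowest mean in experiment 3 and their highest in experiment 1, and both had their largest MEKi minus diluent difference in experiment 2. A part of the shared location in these values was not tested.

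The brightest Adamts9 probe set was ordered otherwise, with means of 9.72, 10.39 and 9.98 (F = 16.9, adjusted p = 0.0349), and experiment 2 lay above experiment 1 by 0.66 (SE 0.12). A second Adamts9 probe set passed (adjusted p = 0.0360) and the other 4 had adjusted p between 0.0867 and 0.192. The call on the brightest one was lost in 6 of 12 alternatives (adjusted p up to 0.595 without the treatment term), among them leaving out the MEKi array of experiment 1 (0.104), the diluent array of experiment 1 (0.120) or the diluent array of experiment 2 (0.106). Adamts6 narrowly missed, with means of 6.72, 7.19 and 7.35 (adjusted p = 0.0515), and passed in 8 of 12 alternatives. Adamts4 (adjusted p = 0.260), Adamts7 (0.102), Adamts10 (0.964), Adamts12 (0.765) and Adamts20 (0.879) did not pass. Whatever changed from one experiment to the next, such as the culture or the array run, cannot be told apart here.

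**Figure D3:**
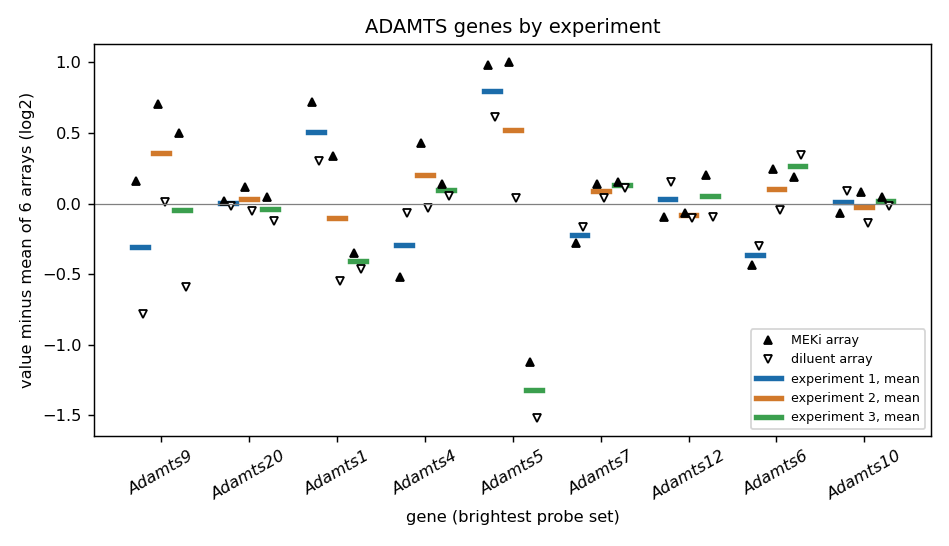
Values of the 9 ADAMTS genes as distance from the mean of a gene's 6 arrays (log2), brightest probe set, by experiment; filled triangles are MEKi arrays, open triangles diluent arrays and bars the mean of the 2 arrays of an experiment. Both Adamts5 arrays of experiment 3 lie more than 1 log2 unit below the mean, while Adamts9 has MEKi above diluent in each experiment.

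The rest of the ADAMTS family did not pass in either direction. Of 16 other genes, 0 were called higher and 0 lower at an adjusted p under 0.05 (limma). The shares over all probe sets were only 0.104% and 0.0555%, so a count of 0 in a list this short carries little. At an unadjusted p under 0.05 there was 1 of 16, against 9.89% of all probe sets. Their median log2 difference was 0.05, beside 0.04 for all probe sets. On the brightest probe set of each gene, the 9 other proteases had log2 differences of -0.03 to 0.19. They include Adamts3 and Adamts14 (procollagen processing), Adamts13 (cleavage of von Willebrand factor) and Adamts15. Among these brightest probe sets the highest were Adamts13 at 0.19 ± 0.10 (SE, adjusted p = 0.605) and Adamts18 at 0.12 (adjusted p = 0.630). The 16 probe sets of Adamts3 ran from -0.13 to 0.32 and the 5 of Adamts17 from -0.01 to 0.21, and 0 of either gene passed. Without experiment 1 Adamts13 was at 0.064, below Adamts18 at 0.14. The 7 ADAMTS-like genes encode proteins with the thrombospondin repeats but no protease domain, and had a median of 0.07. Of these, Adamtsl1 was at 0.23 (adjusted p = 0.451) and Thsd4 at 0.13 (adjusted p = 0.677). Of the 16 genes, 3 were higher and 1 was lower in all 3 experiments, against 23.8% and 7.98% of all probe sets.

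Of 43 measured substrates and matrix partners, 1 was called higher, 0 were called lower and 42 did not pass (limma, adjusted p under 0.05). Of all probe sets, 0.104% were called higher and 0.0555% lower. At an unadjusted p under 0.05 there were 9 of 43, against 9.89% of all probe sets. In all 3 experiments 17 of 43 were higher and 6 lower, against 23.8% and 7.98% of all probe sets. Their median log2 difference was 0.06, beside 0.04 for all probe sets. Thbs1, thrombospondin 1, a matrix protein that human ADAMTS1 is known to cut, rose by 0.64 ± 0.08 (SE, adjusted p = 0.0489). It did not pass with an estimated correlation between the arrays of an experiment (adjusted p = 0.513 with a random block). It read 12.52, 12.28 and 11.82 in MEKi arrays and 12.01, 11.60 and 11.10 in diluent arrays, so that it was higher in 3 of 3 experiments although the groups overlapped. The call was narrow. It held in 3 of 11 alternatives and was lost when any 1 experiment was left out (adjusted p = 0.105 without experiment 1, 0.170 without experiment 2 and 0.115 without experiment 3), while the log2 difference stayed between 0.60 and 0.70.

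Has2, a hyaluronan synthase whose product carries versican and aggrecan, had the largest log2 difference of the list, at 0.72 ± 0.15 (SE, adjusted p = 0.189). It read 6.53, 6.34 and 5.24 in MEKi arrays and 5.77, 5.22 and 4.98 in diluent arrays, and without experiment 3 it passed (0.95, adjusted p = 0.0295). At the other end, Sdc4, a cell surface heparan sulphate proteoglycan, was at -0.50 ± 0.16 (adjusted p = 0.378) and Dcn, decorin, at -0.45 ± 0.20 (SE, adjusted p = 0.532). Dcn differed by -1.10, 0.09 and -0.32 in the 3 experiments, and Sdc4 by -1.03, -0.13 and -0.35. Both means rest largely on experiment 1, without which Dcn was at -0.12 and Sdc4 at -0.24. The versican gene Vcan read 11.99, 11.94 and 12.13 in MEKi arrays and 11.88, 11.90 and 11.99 in diluent arrays, a log2 difference of 0.10 (adjusted p = 0.716). By group the median was 0.06 for 13 hyalectans and hyaluronan partners and 0.13 for 10 fibrillar procollagen and processing genes. It was 0.02 for 7 microfibril genes and 0.06 for 13 other matrix substrates. The fibrillin gene Fbn1 was on the microfibril list, but no probe set used here names it alone, so it is left out.

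Of 14 genes that inhibit, cleave, glycosylate or clear ADAMTS proteases, 0 were called in either direction (limma, adjusted p under 0.05). Of all probe sets, 0.104% were called higher and 0.0555% lower, so this 0 too carries little. At an unadjusted p under 0.05 there were also 0, against 9.89% of all probe sets, and the median log2 difference was 0.10. In all 3 experiments 6 of 14 were higher and 0 lower, against 23.8% and 7.98% of all probe sets. The main inhibitor Timp3 read 4.89, 4.84 and 4.69 in MEKi arrays and 4.58, 4.79 and 4.71 in diluent arrays (log2 difference 0.11, adjusted p = 0.731). Timp1, another metalloprotease inhibitor, was at 0.14 (adjusted p = 0.602). The largest log2 differences were those of Pcsk7, a proprotein convertase, at 0.20 (adjusted p = 0.514), and of B3glct, which completes the sugar on thrombospondin repeats, at 0.19 (adjusted p = 0.549). Lrpap1, the chaperone of the clearance receptor Lrp1, was at 0.14 (adjusted p = 0.649). The convertase Furin read 11.21, 11.02 and 11.09 in MEKi arrays and 11.49, 11.06 and 11.06 in diluent arrays.

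**Figure D4:**
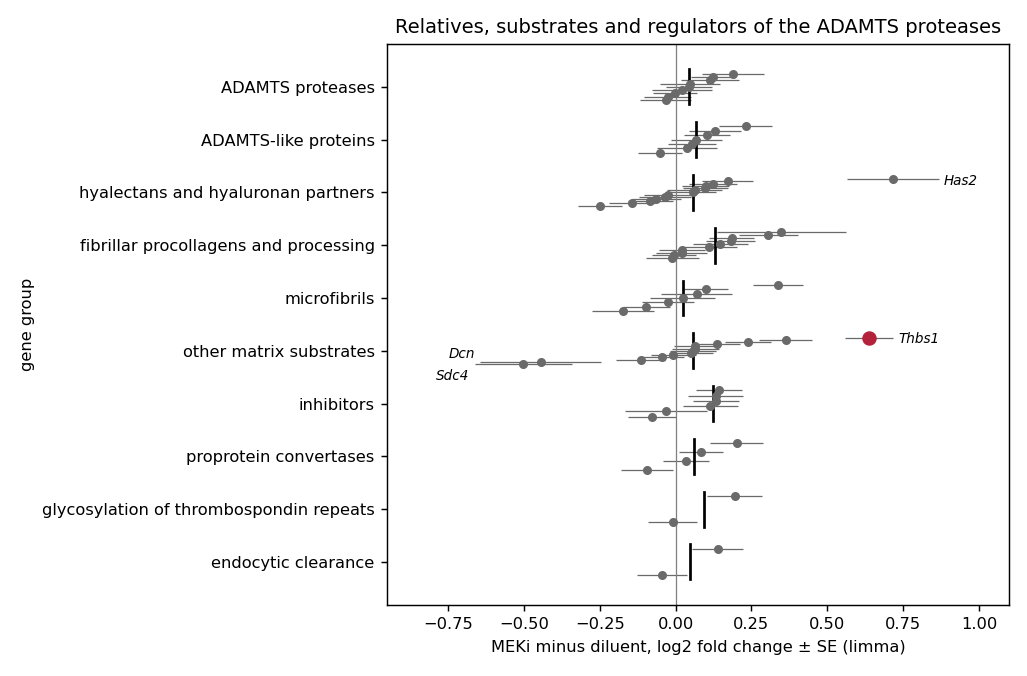
MEKi minus diluent as log2 fold change ± SE (limma) for the 73 measured relatives, substrates and regulators of the ADAMTS proteases, by group; a black line marks each group's median and the larger red point the 1 gene past the threshold, Thbs1 at 0.64. Has2 at 0.72, Dcn at -0.45 and Sdc4 at -0.50 lie apart but did not pass.

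The genes whose values over the 6 arrays ran closest to the brightest Adamts9 probe set, among 10794 genes at or above the median level, were Tmem150a (Pearson r = 0.993), Myorg (0.992), Pecr (0.991), Marchf2 (0.989) and Cd177 (0.988). They are a membrane protein, a glycosidase-like protein, a peroxisomal enoyl reductase, a ubiquitin ligase and a neutrophil surface protein. The 6 arrays share 3 experiments and 2 conditions, and the coefficients are given as a description, without a p. Myorg read 7.60, 7.84 and 7.77 in MEKi arrays and 7.20, 7.62 and 7.31 in diluent arrays, with the Adamts9 pattern of a high experiment 2 in both groups. The log2 differences of the 5 genes were smaller than that of Adamts9, at 0.14 for Tmem150a, 0.36 for Myorg, 0.27 for Pecr, 0.27 for Marchf2 and 0.38 for Cd177, and 0 of the 5 passed (limma, adjusted p = 0.589, 0.215, 0.304, 0.344 and 0.183 in that order).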

How the data were processed

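RNA of 6 MS5 cultures was hybridized to 6 arrays, 3 MEKi and 3 diluent. The authors normalized the intensities with RMA in Bioconductor (background correction, quantile normalization, probe set summary) and used Partek; they deposited log2 values, and 0 array columns were left out. Versions and a genome build are not given in the sources used here. Values were used as deposited, with no filter. Probe sets were named by the platform's table: 21789 name 1 gene, 1621 several and 5443 none, and 21698 of the first were found in the RefSeq gene table. A gene with several probe sets is represented by its brightest, except that every probe set of the ADAMTS genes named in the opening is reported.

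MEKi and diluent were compared with limma 3.58.1 in R 4.3.3 (lmFit, eBayes). The experiment entered as a block, and adjustment was by Benjamini-Hochberg over 28853 probe sets (residual degrees of freedom 2, prior 5.17). The same fit gave the F test between experiments. Labels and methods give 1 culture of each group per experiment, and the numbers pair the arrays: deviations from the group means correlated by 0.812, 0.586 and 0.621 within an experiment and by -0.605 to 0.207 otherwise. Without the replicate block 0 of 28853 probe sets were called, against 46 with it.

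The members and gene lists were chosen with earlier results of these data known. Named are all members, from each list the genes past the threshold or otherwise up to 4 by size of change, and the 5 genes most like Adamts9; Timp3, Furin and Vcan were added after their values were seen. Alternatives were no block, a random block, quantile normalization, median centring, brighter probe sets, an intensity trend with robust prior, array weights, only those naming 1 gene, and each experiment or array left out. The procedure was tested on simulated data. Precision is limited by the number of arrays. Plots were made in Python 3.11.15 (matplotlib 3.10.9).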

Additional observations from a re-analysis of the deposited data

How the results depend on the processing

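The calls between MEKi and diluent depended on the model. Over all probe sets 46 were called with the replicate block, 0 without it, 0 with a random block and 0 after median centring. There were 15 after quantile normalization (4 higher, 11 lower) and 25 among brighter probe sets. There were 61 among those naming 1 gene, 115 with an intensity trend and robust prior, and 57 with array weights. With 1 experiment left out there were 0 to 37 (14 without experiment 1, 0 without experiment 2, 37 without experiment 3). The ADAMTS count of 4 was 0 without the block, with a random block, after centring and after quantile normalization, 2 among brighter probe sets and 0 to 2 with 1 experiment left out, while it was 6 among probe sets naming 1 gene, with the trend and with array weights. The substrate count of 1 was 0 without the block, with a random block, after centring, after quantile normalization and among brighter probe sets, and 0 to 1 with 1 experiment left out (the 1 being Has2 without experiment 3). The other 2 lists kept a count of 0 throughout. The difference on the brightest Adamts9 probe set was 0.82 to 1.02 with 1 experiment left out.

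Between experiments, the 2218 calls became 1343 without the treatment term, 3564 with the trend and 983 to 2111 with 1 array left out (983 without diluent experiment 1, 1023 without MEKi experiment 1, 1307 without diluent experiment 2). The ADAMTS count of 4 became 1 without the treatment term, 7 with the trend and 1 to 7 with 1 array left out (1 without either array of experiment 1, 7 without the MEKi array of experiment 3). The cause was not tested. Between MEKi and diluent, the brightest Adamts9 probe set and Thbs1 stayed higher with MEKi in all 11 alternatives. The split over all probe sets did not keep its balance, with 30 higher and 16 lower becoming 4 and 11 after quantile normalization.

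With 3 arrays a group, 1 experiment decides several calls. No detection call was used, so the low values of Adamts20, Timp3 and Has2 carry no statement about background.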
